A study of Mus musculus with 21 samples.

Results

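The comparison asked whether 8 weeks of nanoplastics shifted the RNA difference between the right and the left ventricle of the same heart. Each mouse gave 1 value per gene, the log2 level in its right ventricle minus that in its left, and these values were compared between 3 nanoplastics mice and 3 control mice. Members of the comparison are the ventricular libraries of nanoplastics mice 1, 3 and 4 and of control mice 1, 2 and 3, which makes 12 of the 21 libraries of the series, from 6 of its 7 mice. Nanoplastics mouse 2 was left out because its right ventricular library held only 4662 counts. All animals were wild-type adult male mice, and the groups differed in what they were given over 8 consecutive weeks: polystyrene nanoplastics, which are plastic particles of nanometre size, or distilled water. No source used here gives the strain, age in weeks, particle size, dose or route. The labels number the mice, so p-values rest on the spread between these animals, which the main test estimates with help from other genes. No gene carries a coordinate in the deposited table, and genes are named as the table names them.

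The ventricles share most of their muscle programme but work against different pressures, the right pumping to the lungs and the left to the body. Their muscle also comes from different progenitor fields in the embryo. Heart muscle is dense with mitochondria, which have their own small genome. That genome encodes a set of respiratory chain subunits and both RNAs of the mitochondrial ribosome, mt-Rnr1 for the small subunit and mt-Rnr2 for the large one.

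Of 20960 genes in the table, 19370 had a count in these libraries and 6228 had enough counts to be tested. A single gene differed between nanoplastics and control mice in its right minus left difference at an adjusted p under 0.05 in edgeR's quasi-likelihood test, which is 0.0161% of the genes tested. That gene was mt-Rnr1, with a higher right minus left difference in nanoplastics mice. Without adjustment, 308 genes had a p under 0.05, or 4.95% of those tested, 166 with a higher and 142 with a lower difference in nanoplastics mice. For 675 genes, or 10.8%, the 3 nanoplastics differences did not overlap the 3 control differences, with 295 above and 380 below. Scaled by library totals alone, that split was 200 above and 531 below, and the median over all genes moved from −0.01 to −0.09 log2. With no difference between treatments, 3 against 3 values separate fully in a share of 0.1, so the 10.8% lies near that rate. The 4.95% likewise lies near the threshold of 0.05.

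The libraries were made by capturing RNA on oligo-dT, which pairs with runs of A. Sequences around the longest runs of A are therefore shown for mt-Rnr1, the gene called, and for mt-Rnr2, its uncalled partner in the mitochondrial ribosome. They come from the GENCODE M21 transcripts of the mitochondrial chromosome and are written 5′ to 3′ with a longest run of A in capitals. The mt-Rnr1 window spans positions 608 to 667 of a transcript of 955 nt, and the mt-Rnr2 window positions 368 to 427 of one of 1582 nt.
mt-Rnr1: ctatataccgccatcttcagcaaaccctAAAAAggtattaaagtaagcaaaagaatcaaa
mt-Rnr2: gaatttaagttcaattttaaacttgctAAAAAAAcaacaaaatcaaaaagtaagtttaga
The longest run in mt-Rnr1 is 5 A, which it holds 2 times, 1 of them in the window, and 83.3% of the 20504 genes with an annotated transcript hold a run at least as long. The run of 7 A in mt-Rnr2 was matched or exceeded in 40.7% of those genes. The percentages count runs anywhere in the annotated transcripts.

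In control mice the right and left levels of mt-Rnr1 overlapped, while in nanoplastics mice the right ventricle held more in each animal. In CPM, that is, counts rescaled to a common library size after TMM normalisation, the left ventricles of control mice 1, 2 and 3 held 6660, 5220 and 6170 and the right ventricles 5550, 5440 and 5280. In nanoplastics mice 1, 3 and 4 the left ventricles held 8440, 7680 and 7290 CPM and the right ventricles 15800, 9590 and 11200. Every nanoplastics right ventricle lay above all other ventricles of the comparison, and the nanoplastics left ventricles lay above the control left ventricles. Within mice, the log2 right minus left difference of mt-Rnr1 was −0.26, 0.06 and −0.23 in the controls and 0.91, 0.32 and 0.61 in the nanoplastics mice, with no overlap. The difference between the treatments was 0.76 log2 (SE 0.15, 95% interval 0.45 to 1.06, adjusted p = 0.0208, n = 3 and 3). On the nanoplastics side alone mt-Rnr1 was 0.61 log2 higher in the right ventricle (SE 0.11, adjusted p = 0.000498). On the control side it was −0.14 log2 (SE 0.11, adjusted p = 0.999).

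The mt-Rnr1 call depended on single mice. Its adjusted p was 0.836 at 0.59 log2 without nanoplastics mouse 1, 0.226 at 0.75 log2 without nanoplastics mouse 4 and 0.0501 at 0.71 log2 without control mouse 1. It was also lost in DESeq2 (adjusted p = 0.429) and in limma on the within-mouse differences (adjusted p = 0.0718), while limma-voom kept it (adjusted p = 0.00124). The call on the nanoplastics side alone was made in 13 of 18 alternatives, and was lost at 0.46 log2 without nanoplastics mouse 1 (adjusted p = 0.729), at 0.61 log2 without nanoplastics mouse 4 (adjusted p = 0.108) and at 0.19 log2 with nanoplastics mouse 2 included (adjusted p = 0.946). With that mouse included, the difference between treatments was 0.34 log2 (adjusted p = 0.999). That mouse had 8802 CPM of mt-Rnr1 on the left and 8580 CPM on the right, the latter from 40 counts, with a 95% exact binomial interval of 6137 to 11670 CPM for counting error only; both CPM are of library totals.

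The large ribosomal RNA of mitochondria, mt-Rnr2, was highest in the same 3 libraries as mt-Rnr1 but did not pass the adjusted test. Its left ventricular levels were 24200, 15100 and 22200 CPM in control mice and 25700, 25400 and 23700 CPM in nanoplastics mice. Its right ventricular levels were 15800, 16300 and 15300 CPM in control mice and 76100, 36200 and 29900 CPM in nanoplastics mice. The 3 nanoplastics right ventricles again stood above the rest, and nanoplastics mouse 1 stood far above the other two. The mt-Rnr2 difference between treatments was 1.15 log2 (SE 0.43, adjusted p = 0.962). It was called by limma-voom (1.17 log2, adjusted p = 0.000498) and by edgeR without robust fitting (1.15 log2, adjusted p = 0.00438), and not by DESeq2.

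**Figure D1:**
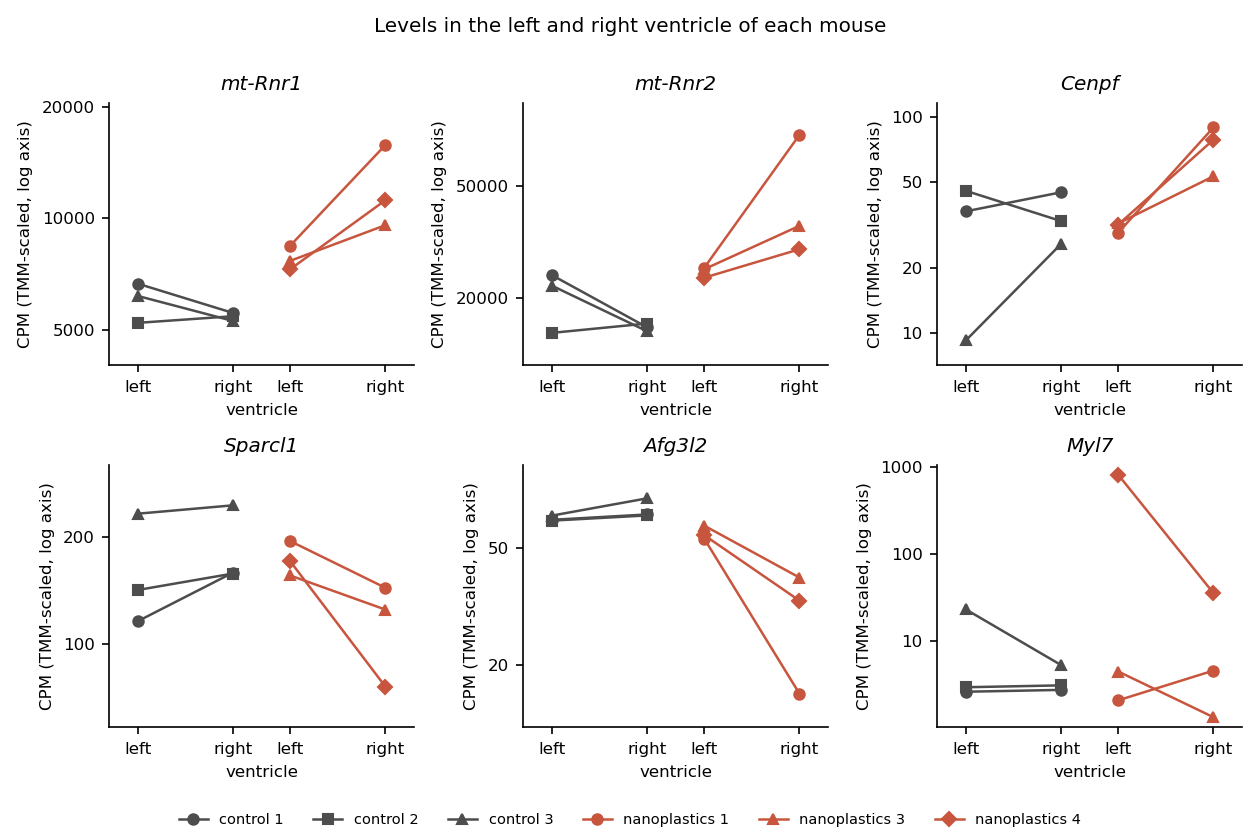
Levels of 6 genes in CPM (TMM-scaled, log axis) in the left and right ventricle of each mouse; a line joins the ventricles of 1 mouse, grey for the 3 control mice and red for the 3 nanoplastics mice. All 3 red lines climb for mt-Rnr1, mt-Rnr2 and Cenpf and all 3 descend for Sparcl1 and Afg3l2, while for Myl7 nanoplastics mouse 4 starts at 818 CPM on the left and the other mice stay below 25 CPM on both sides.

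The 8 other mitochondrially encoded transcripts tested had estimates from −0.12 to 0.33 log2, smaller than those of both ribosomal RNAs. Of 15 mitochondrially encoded genes on the list, 10 were tested, 6 with a positive and 4 with a negative estimate and a median of 0.17 log2 against −0.01 for all genes tested. Besides the ribosomal RNAs, mt-Nd4, a complex I subunit, had an unadjusted p under 0.05 (0.33 log2, SE 0.15, adjusted p = 0.962). The abundant mt-Co1, a core subunit of cytochrome oxidase, had an estimate of −0.02 log2 (SE 0.15), and mt-Cytb, the complex III subunit, one of −0.06 log2 (SE 0.15). With nanoplastics mouse 2 included, the median of the 10 was −0.19 log2.

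The library measures that moved beside mt-Rnr1 were depth and the number of genes detected. The share of both ribosomal RNAs also moved, but it is computed from mt-Rnr1 and mt-Rnr2 themselves and is no separate observation. Together mt-Rnr1 and mt-Rnr2 took 7.69%, 4.25% and 3.96% of the counts in the nanoplastics right ventricles, and between 2.27% and 3.05% in the other 9 libraries. The nanoplastics right ventricular libraries were also smaller than their left partners, with 523089, 813585 and 438053 counts against 1689813, 1214289 and 924621. Control mice 1 and 2 had 2042568 and 1791758 counts on the right and 2439314 and 2128263 on the left, while control mouse 3 had 1333133 on the right and 413436 on the left. The log2 right minus left difference in depth did not overlap between the treatments (exact two-sided permutation p = 0.1, the smallest that 3 against 3 mice allow, and 0.267 adjusted over 8 measures). With every library thinned to 413436 counts in a single random draw, the mt-Rnr1 difference was 0.78 log2 (adjusted p = 0.00235). That fit tested 3216 genes against 6228 in the main test, so the adjusted p-values of both are not directly comparable. Depth and treatment cannot be told apart in these libraries. Of the other 7 measures, genes detected and the ribosomal RNA percent gave the same exact permutation p of 0.1, and the rest 0.3 to 0.8.

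**Figure D2:**
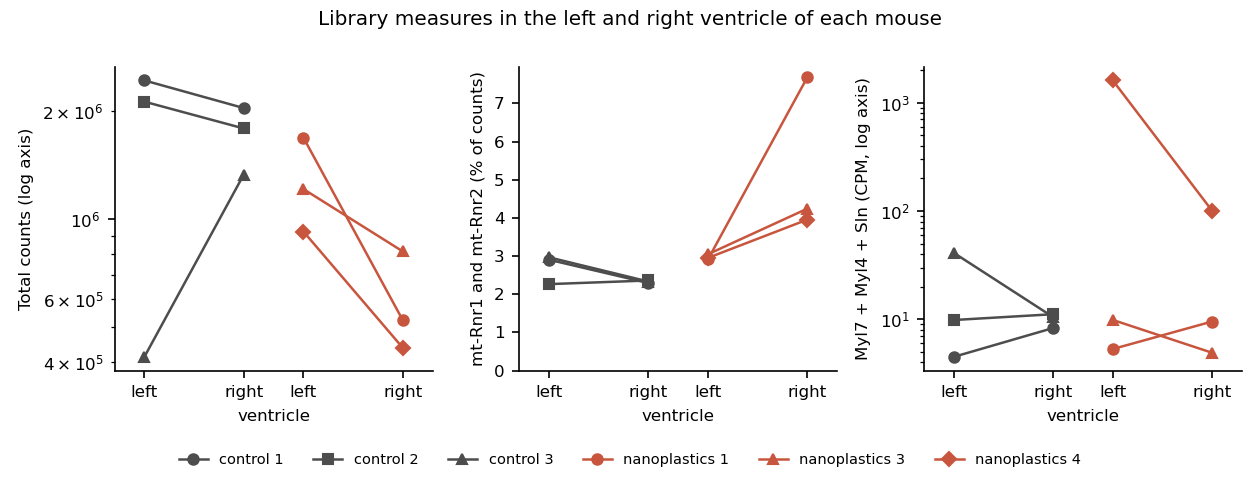
Total counts (log axis), the percent of counts in mt-Rnr1 and mt-Rnr2, and the summed CPM of the atrial genes Myl7, Myl4 and Sln (log axis) in the left and right ventricle of each mouse, joined by a line. Depth falls from left to right in all 3 nanoplastics mice and in control mice 1 and 2, the ribosomal RNA percent climbs in all 3 nanoplastics mice, and nanoplastics mouse 4 holds 1605 CPM of atrial genes on the left.

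In control mice no gene differed between the ventricles at an adjusted p under 0.05 in edgeR (0%), with 256 genes, or 4.11%, under 0.05 before adjustment. DESeq2 and limma on the within-mouse differences also called 0 genes there, and limma-voom called 1, the hemoglobin gene Hbb-bs. In nanoplastics mice 3 genes were called, or 0.0482% of those tested, and 384 genes, or 6.17%, had an unadjusted p under 0.05. The called genes were mt-Rnr1 and Cenpf, higher on the right, and Myl7, higher on the left. Right and left libraries of a mouse were closely alike: over the 970 genes above 100 CPM, their levels correlated at 0.981 to 0.993, against 0.905 to 0.989 between libraries of different mice, as a description across genes. The right minus left differences of those genes correlated between pairs of control mice at −0.17 to 0.06 and between pairs of nanoplastics mice at 0.07 to 0.22. Between a control and a nanoplastics mouse they correlated at −0.25 to 0.25, which spans both ranges. Irx4, a transcription factor of ventricular muscle, had 4.51 to 9.68 CPM of library totals in control left ventricles and 2.25 to 3.35 CPM in control right ventricles, so every left value was above every right value. In nanoplastics mice Irx4 overlapped, at 2.47 to 5.41 CPM on the left and 1.91 to 4.57 CPM on the right. These Irx4 levels rest on few counts in the shallow libraries. In control mouse 3 on the left, 1 count was 2.42 CPM, and in nanoplastics mouse 4 on the right 2.28 CPM. Irx4 was chosen after its values were seen. The transcription factors Hand2, at 9.13 to 19.4 CPM of library totals, Tbx5, at 1.78 to 7.83 CPM, and Hey2, at most 2.28 CPM, overlapped between the sides in both treatments. Myl2, the ventricular myosin light chain, was at 7235 to 13900 CPM of library totals in all 12.

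**Figure D3:**
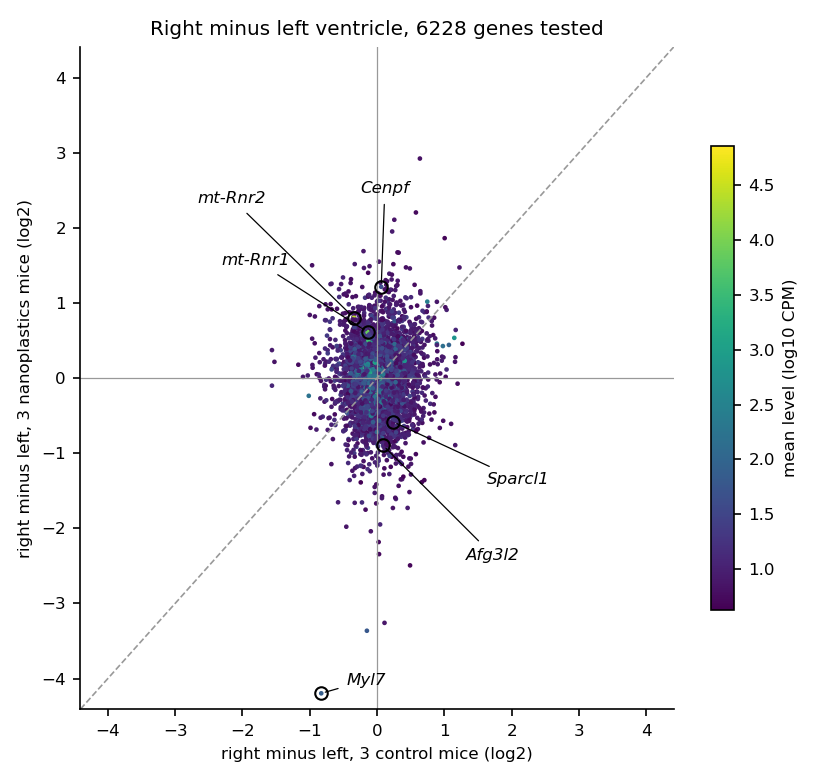
Each of the 6228 points is a gene tested, with its log2 right minus left difference in the 3 control mice on the x axis, that in the 3 nanoplastics mice on the y axis, and its mean level as colour. The dashed line marks equal differences, and mt-Rnr1 (−0.14 and 0.61), Cenpf (0.06 and 1.21) and Myl7 (−0.83 and −4.20) are among the circled genes. The cloud is wider along y, where the median SE is also larger (0.337 log2 against 0.238 along x). A difference in width between the treatments was not tested.

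Cenpf encodes a centromere protein made by dividing cells. Its left ventricular levels were 36.5, 45.4 and 9.25 CPM in control mice and 29.1, 32.1 and 31.7 CPM in nanoplastics mice. On the right it had 44.7, 32.9 and 25.8 CPM in control mice and 89.1, 53 and 78.2 CPM in nanoplastics mice, so the nanoplastics right ventricles were the highest of all. Cenpf was 1.21 log2 higher on the right in nanoplastics mice (SE 0.23, adjusted p = 0.00209). This call was made in 10 of 18 alternatives. It was lost at 0.98 log2 without nanoplastics mouse 1 (adjusted p = 0.762), at 1.18 log2 without nanoplastics mouse 4 (adjusted p = 0.139), in DESeq2 (adjusted p = 0.555), in limma on the within-mouse differences (adjusted p = 0.122) and after thinning (adjusted p = 0.217). The difference between treatments, 1.15 log2 (SE 0.31, adjusted p = 0.34), did not pass, and the control and nanoplastics differences overlapped through control mouse 3, at 1.34, whose left value rests on 4 counts. Without control mouse 3 the Cenpf difference between treatments was called at 1.29 log2 (adjusted p = 0.0164).

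Myl7, the atrial myosin light chain, rested on a single mouse. Nanoplastics mouse 4 had 818 CPM of it on the left and 35.6 CPM on the right, and the other 10 libraries had 1.33 to 23.1 CPM. Its right minus left value in nanoplastics mice was −4.20 log2 (SE 0.36, adjusted p = 2.02e-10), and the difference between treatments −3.37 log2 (SE 0.71, adjusted p = 0.0843). Without nanoplastics mouse 4, Myl7 did not pass the count filter and was not tested. DESeq2 did not call its right minus left value in nanoplastics mice (−2.06 log2, adjusted p = 1). Sln, the atrial regulator of the calcium pump, had 622 CPM in the same left library and at most 47.4 CPM elsewhere, and a difference between treatments of −3.21 log2 (SE 1.45, adjusted p = 0.962). Over all 14 atrial muscle markers, the summed level was 1738 CPM of library totals in that library and 101.2 to 239.7 CPM in the other 11. Of the 1738 CPM, 1605 came from Myl7, Myl4 and Sln. Bmp10, another gene of the atrial list, was at 0 in 10 of 12 libraries, including the left library of nanoplastics mouse 4, where 1 count was 1.08 CPM. Nppa, which is not on that list, was highest of the 12 in the same left library, at 643.5 CPM of library totals. Whether this left piece held atrial tissue, and any part of that in other results of this mouse, was not tested.

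After mt-Rnr1 and Myl7, the genes with the smallest p in the comparison of treatments had adjusted p-values of 0.336 to 0.485, so none of them passed. They are described because the naming rule takes the 10 smallest p. Sparcl1, a matricellular protein of vessels and stroma, had left levels of 116, 142 and 233 CPM in control mice and 195, 156 and 171 CPM in nanoplastics mice. Its right levels were 159, 158 and 246 CPM in control mice and 144, 125 and 75.8 CPM in nanoplastics mice. Every control mouse had more Sparcl1 on the right and every nanoplastics mouse more on the left, a difference of −0.82 log2 (SE 0.21, adjusted p = 0.336).

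Afg3l2 is a subunit of the protease of the inner mitochondrial membrane that clears misfolded subunits and matures a mitochondrial ribosomal protein. It had left levels of 62.6, 62.2 and 64.7 CPM in control mice and 54, 59.8 and 55.5 CPM in nanoplastics mice. On the right the control mice had 65.3, 64.8 and 74.1 CPM and the nanoplastics mice 16, 39.8 and 33.2 CPM. The nanoplastics right ventricles were the lowest of all 12 libraries, and the difference between treatments was −0.98 log2 (SE 0.29, adjusted p = 0.485). The right value of nanoplastics mouse 1 came from 7 counts. Rps19bp1, a nucleolar partner of a ribosomal protein, had the same layout: 37.4, 39.6 and 24.5 CPM in control right ventricles, 16, 18.6 and 16.6 CPM in nanoplastics right ventricles, and 25.4 to 38.4 CPM in the 6 left ventricles, for a difference of −1.22 log2 (SE 0.36, adjusted p = 0.485). Its nanoplastics right values came from 7, 14 and 7 counts.

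Fbxo9, an adaptor of a ubiquitin ligase, had differences of −0.46, −0.64 and −0.32 log2 in control mice and of 1.42, 1.03 and 0.54 log2 in nanoplastics mice, with no overlap. Its difference between treatments was 1.64 log2 (SE 0.45, adjusted p = 0.389), at levels of 7.62 to 23.7 CPM. H2-Aa, a chain of the MHC class II molecule on antigen-presenting cells, had differences of 0.66, −0.24 and −0.11 in control mice and −1.20, −0.70 and −0.49 in nanoplastics mice. Its estimate was −0.89 log2 (SE 0.26, adjusted p = 0.485). Socs2, an inhibitor of growth hormone signalling, and C1qtnf4, a secreted protein of the C1q and tumour necrosis factor related family, had estimates of −1.27 log2 (SE 0.33, adjusted p = 0.34) and 1.45 log2 (SE 0.41, adjusted p = 0.485), and in both the treatments overlapped.

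Cytosolic ribosomal protein genes leaned one way. Of 75 tested, 73 had a positive estimate, that is, a higher right minus left difference in nanoplastics mice, with a median of 0.24 log2 and a range from −0.09 to 0.84. None was called. By unadjusted p, 10 were under 0.05, all higher, or 10 of 75 against 4.95% of all genes tested, and 6 did not overlap between treatments against 10.8%. All of them come from the same 6 mice and are not independent observations. Per mouse, their median right minus left difference was −0.36, 0.12 and −0.19 log2 in control mice and 0.23, 0.08 and −0.09 log2 in nanoplastics mice, which overlap. Rpl39 had the smallest p (0.64 log2, SE 0.20, adjusted p = 0.485), with right ventricular levels of 154, 158 and 128 CPM in control mice and 343, 239 and 258 CPM in nanoplastics mice. Its within-mouse differences overlapped, at −0.69, 0.12 and −0.52 log2 in control mice and 0.55, 0.22 and 0.045 log2 in nanoplastics mice. Rpl29 was at 0.46 log2 (SE 0.18). The median was positive under all 18 alternatives, from 0.12 log2 without control mouse 1 to 0.38 log2 without control mouse 2. Among 26 translation factors the estimates split evenly, 13 and 13, with a median of −0.01 log2; Eef2, which moves the ribosome along, had 0.63 log2 (SE 0.22, adjusted p = 0.748) and Eif1, which guards start codon choice, 0.34 log2 (SE 0.16, adjusted p = 0.962).

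Nuclear genes of oxidative phosphorylation gave a median of 0.04 log2 over 77 tested, 47 positive and 30 negative, and that median was −0.05 under library totals, −0.07 with no filter and −0.11 with nanoplastics mouse 2 included. The 4 with an unadjusted p under 0.05 were Cox7a1, Cox8b, Atp5e and Atp5g3, small subunits of cytochrome oxidase and of ATP synthase, at 0.32 to 0.36 log2. These 4 of 77 lie near the 4.95% of all genes tested. Without overlap between treatments were 5 of the 77 above and 4 below, near the 10.8% of all genes tested. Cox7a1 did not overlap between treatments: its within-mouse differences were −0.20, −0.07 and −0.42 in control mice and 0.17, 0.04 and 0.20 in nanoplastics mice. Fatty acid genes had a median of −0.08 log2 over 33 tested, with Acadm, the medium-chain acyl-CoA dehydrogenase, at −0.34 log2 (SE 0.16, adjusted p = 0.962). Glycolysis and pyruvate genes had −0.01 log2 over 22, with Pdha1, the gatekeeper subunit of pyruvate oxidation, at −0.34 log2 (SE 0.16, adjusted p = 0.962). No gene of these lists passed adjustment.

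**Figure D4:**
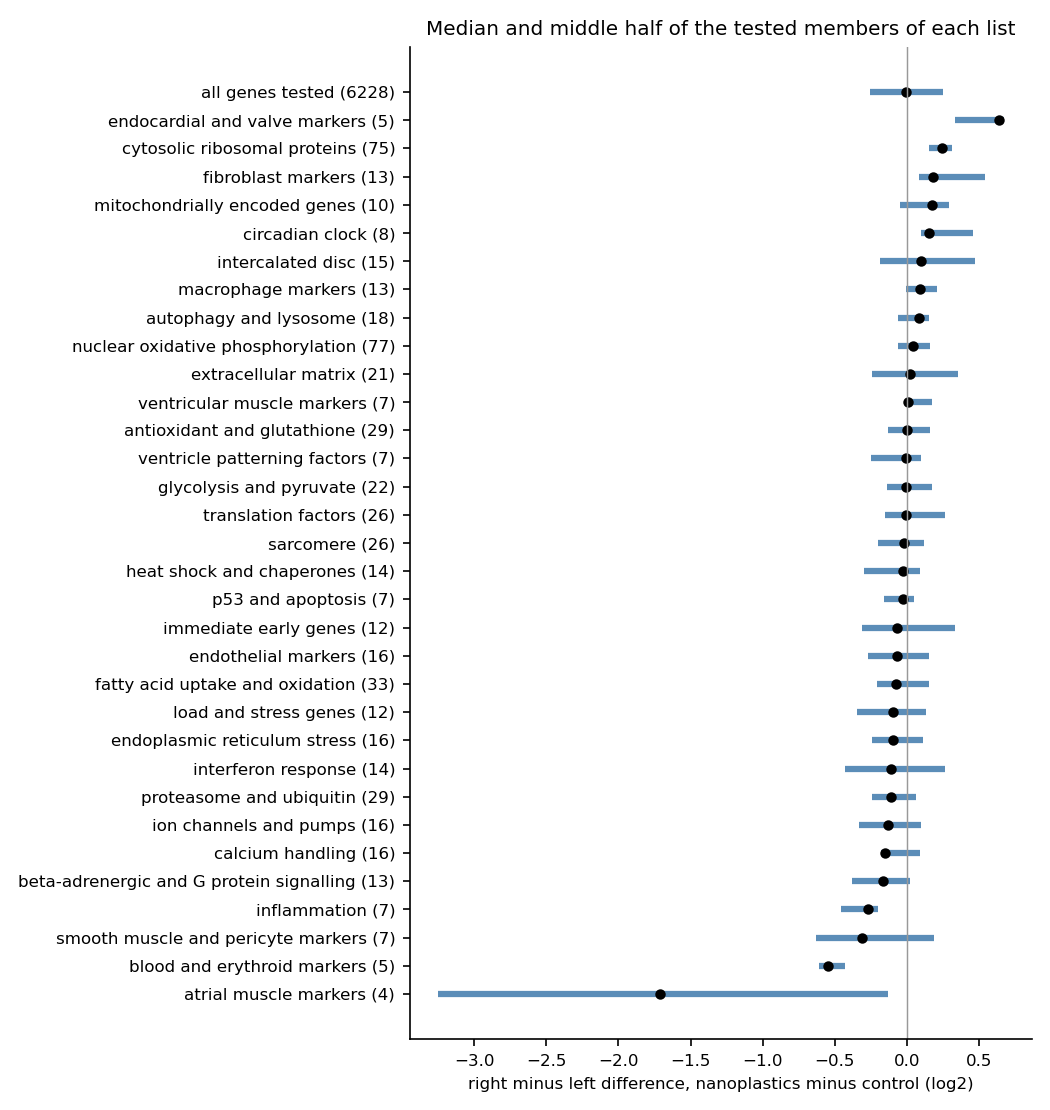
For each list with at least 4 tested genes (number in brackets) and for all genes tested, the dot is the median difference between treatments in log2 and the bar runs from the lower to the upper quartile of the members. Most lists lie close to the −0.01 of all genes, the 75 ribosomal protein genes sit at 0.24 with a short bar, and the 4 atrial markers reach furthest to the left. Of these markers, Myl7 (−3.37) and Sln (−3.21) rest on nanoplastics mouse 4, while Kcnj3 and Pam are at −0.21 and 0.10. Without nanoplastics mouse 4 the median of the atrial list is −0.20 log2.

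Genes of load, contraction and rhythm showed no call, and their intervals differed widely in width. The natriuretic peptide genes, which heart muscle turns on under stretch, were loosely determined: Nppa at 0.27 log2 (95% interval −2.48 to 3.03) and Nppb at −0.22 log2 (−2.00 to 1.56). Within mice, Nppa differed by 0.92, 1.49 and −0.19 log2 in control mice 1, 2 and 3. In nanoplastics mice 1, 3 and 4 it differed by 2.39, 1.61 and −0.72 log2. The left library of nanoplastics mouse 4, also high in Myl7 and Sln, held 674 CPM of Nppa, the most of all 12. Myh6, the fast adult myosin heavy chain, was at −0.12 log2 (−0.44 to 0.20) and Myh7, the slow fetal one, at 0.11 log2 (−0.47 to 0.69). For the calcium store, Pln, the brake on the calcium pump, was at 0.00 log2 (−0.30 to 0.30), the pump Atp2a2 at 0.08 log2 (−0.28 to 0.44) and the release channel Ryr2 at 0.18 log2 (−0.32 to 0.68). These intervals leave out a 2-fold difference, 1 on the log2 scale, in either direction for Myh6, Myh7, Pln, Atp2a2 and Ryr2, and they do not for Nppa and Nppb.

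Among channels and couplings, Gja1, the gap junction protein connexin 43, was at −0.38 log2 (95% interval −0.81 to 0.06), with 120, 134 and 161 CPM in control right ventricles and 89.1, 99.5 and 85.3 CPM in nanoplastics right ventricles. Its left levels, 115, 125 and 127 CPM in control and 120, 88.4 and 122 CPM in nanoplastics mice, lay closer together, and the within-mouse differences overlapped. Cacna1c, the L-type calcium channel, was at −0.21 log2 (−1.09 to 0.67), Kcnip2, a subunit of the transient outward potassium current, at −0.42 log2 (−1.32 to 0.48), and Camk2d, the calcium-dependent kinase of the heart, at −0.15 log2 (−0.79 to 0.48). The potassium channel genes Kcnj2 and Kcnq1 had too few counts to be tested, at means of 7 and 5.17 counts. The lists of 16 calcium handling genes, 16 channels and pumps and 15 intercalated disc genes had medians of −0.15, −0.13 and 0.10 log2, and a single gene among them had an unadjusted p under 0.05: Hrc, a calcium store protein, at −0.40 log2 (SE 0.17, adjusted p = 0.962). Thinned to equal totals, these medians were 0.01, 0.12 and −0.31 log2. Without nanoplastics mouse 1 the medians of channels and of intercalated disc genes were 0.09 and −0.14 log2, and without control mouse 1 that of channels was 0.20 log2.

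**Figure D5:**
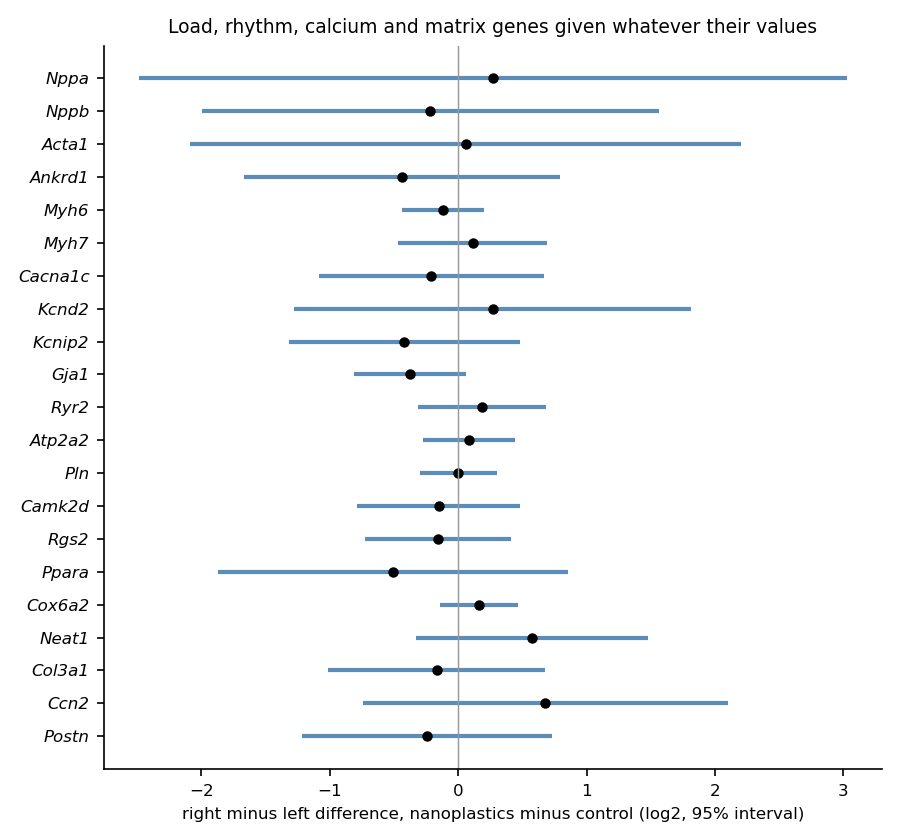
Difference between treatments of the right minus left value in log2 for 21 genes chosen whatever their values; dots are estimates and bars 95% intervals. Every bar crosses 0, and the bars of Pln, Cox6a2, Myh6 and Atp2a2 are the narrow ones.

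Of 26 sarcomere genes, 11 were positive and 15 negative, with a median of −0.02 log2. Tnnt2, cardiac troponin T, was at −0.31 log2 (SE 0.15, adjusted p = 0.962), and its differences did not overlap: 0.27, −0.03 and 0.20 in control mice and −0.20, −0.15 and −0.14 in nanoplastics mice. Myot, a Z-disc protein, was at −0.58 log2 (SE 0.23, adjusted p = 0.953), with no overlap.

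Of 29 proteasome and ubiquitin genes, 19 were negative, with a median of −0.11 log2, and the members with the smallest p were Psmc2 and Psmc1, ATPases of the regulatory particle, at −0.52 log2 (SE 0.22, adjusted p = 0.962) and −0.43 log2 (SE 0.20, adjusted p = 0.962). Of 14 heat shock and chaperone genes, 7 were positive and 7 negative. The cochaperone Dnaja1 was at −0.78 log2 (SE 0.26, adjusted p = 0.687), with 70.3, 69.9 and 140 CPM in control right ventricles and 82.2, 62.3 and 16.6 CPM in nanoplastics right ventricles. There nanoplastics mouse 4 was far below nanoplastics mice 1 and 3, on 7 counts. Hspa5, the main chaperone of the endoplasmic reticulum, was at −0.51 log2 (SE 0.18, adjusted p = 0.687): 458, 435 and 573 CPM on the right in control mice against 464, 357 and 329 CPM in nanoplastics mice. Herpud1, another target of reticulum stress, had the opposite sign, 0.60 log2 (SE 0.30, adjusted p = 0.962). Antioxidant genes had a median of 0 log2 over 29, with Nqo1 at −0.53 log2 (SE 0.25, adjusted p = 0.962). The lowest adjusted p of these lists was 0.687.

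Of 13 tested fibroblast markers 12 were positive, with a median of 0.18 log2. That median was −0.07 log2 without nanoplastics mouse 3 and 0.47 log2 without nanoplastics mouse 1. Per mouse, the median right minus left difference was 0.19, −0.25 and −0.02 log2 in control mice and −0.10, 0.34 and 0.35 log2 in nanoplastics mice, which overlap. Htra3, a secreted serine protease, was at 1.46 log2 (SE 0.45, adjusted p = 0.485) and Gsn, an actin-severing protein, at 0.57 log2 (SE 0.19, adjusted p = 0.589), both without overlap. Gsn had 221, 113 and 277 CPM in control right ventricles and 272, 306 and 436 CPM in nanoplastics right ventricles. The abundant Dcn was at 0.02 log2 (SE 0.16) and the summed fibroblast markers overlapped, 1329 to 1740 CPM of library totals in control and 1287 to 1882 CPM in nanoplastics right ventricles. In bulk tissue, fewer cells of a type and less RNA per cell cannot be told apart. Of 21 tested matrix genes, 11 were positive and 10 negative; Fbln1, an elastic fibre protein, was at 1.53 log2 (SE 0.57, adjusted p = 0.841) and Timp2, an inhibitor of matrix proteases, at 0.85 log2 (SE 0.37, adjusted p = 0.962). Col1a1 had too few counts to be tested.

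Pericyte and smooth muscle genes had a median of −0.31 log2 over 7, which was 0.07 log2 without control mouse 1 and −0.10 log2 without control mouse 2. Rgs5, the G protein regulator that marks pericytes, had 366, 335 and 322 CPM in control right ventricles and 153, 290 and 107 CPM in nanoplastics right ventricles, against 364, 275 and 273 and then 251, 349 and 153 CPM on the left. Its differences did not overlap (−0.64 log2, SE 0.19, adjusted p = 0.485). Tagln, a smooth muscle protein, was at −1.22 log2 (SE 0.48, adjusted p = 0.955). Abcc9, which pericytes and muscle both use, had a positive estimate of 0.63 log2 (SE 0.33). Endothelial markers had a median of −0.07 log2 over 16. Vwf, the clotting factor carrier of endothelium, was at 1.74 log2 (SE 0.75, adjusted p = 0.962), from 1.37 to 14.7 CPM.

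Immune lists held few testable genes. Macrophage markers had a median of 0.09 log2 over 13, with none under 0.05, and inflammation genes −0.27 log2 over 7, with the chemokine Ccl7 at −1.22 log2 (SE 0.50, adjusted p = 0.962). Interferon genes had −0.11 log2 over 14. Without nanoplastics mouse 3 the macrophage median was −0.07 log2 and without control mouse 2 −0.02 log2, and the inflammation median was 0.21 log2 after thinning.

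The hemoglobin values turned on control mouse 3. Hbb-bs had within-mouse differences of 2.54, 1.46 and −0.60 log2 in control mice and 0.21, 0.79 and 0.57 log2 in nanoplastics mice, so control mice 1 and 2 had more on the right and control mouse 3 less. The difference between treatments was −0.61 log2 (SE 0.87, adjusted p = 0.978). Without control mouse 3 it was −1.39 log2 (adjusted p = 3.38e-09), and Hba-a1, Hba-a2 and Hbb-bt were called with it. The hearts had been flushed with cold buffer, and how much blood stayed in each piece was not measured. Hba-a1 and Hba-a2 are near-identical copies, as are Hbb-bs and Hbb-bt, so counts may be shared within each pair.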

How the data were processed

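Hearts were flushed with cold buffer, divided, and extracted with TRIZOL, per the labels' protocols. Libraries used an oligo-dT plate kit with well barcodes added at the 5′ end, and pooled cDNA was amplified before sequencing on a NovaSeq, per the labels' protocols. STAR is named, with no version, per the submitters' processing notes. No source used here gives the genome build, annotation, counting program, strand setting or any handling of molecular identifiers, so counting intervals cover counting error only, and overlapping or antisense genes cannot be separated. The authors deposited raw counts per gene symbol, 20960 genes in 21 libraries, all matched to samples by library name. The 66 pairs of the 12 libraries held no identical columns.

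Genes passing filterByExpr by the 4 groups (6228) were scaled by TMM and fitted with edgeR 4.0.16 (robust quasi-likelihood, R 4.3.3), with mouse as block, section, and section by treatment, leaving 4 residual degrees of freedom. The block stands for the shared animal of both ventricles. The quasi-likelihood test pools information on spread across genes, so its p-values and intervals can use more than those 4 degrees of freedom. Calls use a Benjamini-Hochberg adjusted p under 0.05 over all genes tested, and SE is the estimate over the root of F. Within-mouse differences use log2 CPM with a prior count of 2. limma 3.58.1 and DESeq2 1.42.0 served as alternatives, beside other scalings, filters, libraries, thinning, a length correction and leaving out each mouse. Transcript lengths and sequences come from GENCODE M21, which holds 97.8% of the symbols. The steps were tested on simulated counts. The 37 gene lists hold 796 genes, of which 585 were tested; members and lists were chosen with earlier results of these data known. Named genes are the 10 with the smallest p, called genes of each side (mean of at least 10 counts, no predicted genes), up to 3 members per list with the smallest p, and 25 genes given whatever their values; some genes the rule names are not reported here. Names outside this rule (mt-Co1, mt-Cytb, Atp5g3, Dcn, Hba-a1, Fyco1, Myl4, Irx4, Hey2, Hand2, Tbx5, Bmp10 and the genes called under alternatives) were chosen after their values were seen.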

Additional observations from a re-analysis of the deposited data

Results flagged for a closer look

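The right minus left difference of mt-Rnr1 was flagged because it differed between the treatments by a test of the difference itself, 0.76 log2 higher in nanoplastics mice (adjusted p = 0.0208 in edgeR). It was higher in 3 of 3 nanoplastics mice than in any of the 3 control mice. Full separation in either direction was found for 10.8% of the genes tested. Groups of 3 mice are too small to tell an outlying sample from the spread of its group. Left out singly in edgeR, nanoplastics mouse 1, nanoplastics mouse 4 and control mouse 1 each removed the call (adjusted p = 0.836, 0.226 and 0.0501).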

How the results depend on the processing

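The mouse block ties both ventricles of an animal. With no replicate block, 0 genes were called in the difference between treatments and 0 in nanoplastics mice, and mt-Rnr1 had 0.79 log2 (adjusted p = 1). Against 1 gene called in the difference between treatments, DESeq2 called 0, limma-voom 2, limma on within-mouse differences 0, no filter 4, nanoplastics mouse 2 included 2, all 21 libraries 0 and no robust fitting 3, and leaving out each mouse gave 0 to 10, with 10 without control mouse 3. Against 0 genes called in control mice, limma-voom, no filter and nanoplastics mouse 2 included each called 1, and leaving out each mouse gave 0 to 5, the 5 without control mouse 3 being Nppb and 4 hemoglobin genes. Against 3 genes called in nanoplastics mice, DESeq2 called 1, limma-voom 6, no filter 6, a mean of at least 20 CPM 8, all 21 libraries 0, no robust fitting 5 and removal of the length trend 1, and leaving out each mouse gave 1 to 12. Without nanoplastics mouse 4 that 1 gene was Fyco1, in both comparisons. The percent of genes without overlap stayed between 10.8 and 11.7. Across its 18 alternatives mt-Rnr1 ranged from 0.34 to 0.88 log2, with adjusted p from 0.00124 to 1, and was called in 10. No named gene turned direction while called. Depth limits low genes: the median half-width of the 95% interval was 1.26 log2 in the lowest of 3 equal classes by level and 0.46 in the highest, where 99.2% of genes had a half-width under 1.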
